A study of Mus musculus with 32 samples.

Results

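Autophagy is the route by which a cell wraps part of its cytoplasm in a double membrane, the autophagosome, and delivers it to the lysosome for breakdown. The 59 genes described here encode the machinery of that route and the acid compartment at its end. They are the protein-coding genes whose symbols begin with Atg and a digit, Atp6v, Gabarap or Map1lc3, together with Lamp1, Lamp2, cathepsins A, B, D, H, K, L, S and Z, and Sqstm1, Bnip3, Bnip3l, Ulk1, Ulk2, Becn1, Tfeb, Wipi1, Wipi2, Nbr1 and Optn. A mean of at least 1 CPM over the 32 libraries was also required, where CPM is the usual measure of a gene's count relative to the scaled total of its library. Of 55487 genes in the table, 68 protein-coding genes matched by name and 59 passed the minimum. The 9 others were Atg9b, Atp6v1b1, Atp6v1c2, Atp6v1e2, Atp6v1fnb, Atp6v1g3, Atp6v0a4, Atp6v0d2 and Atg4a-ps. The pseudogenes Atp6v0c-ps1 and Atp6v0c-ps2 matched by name but are not protein-coding. Ctsk, at 2.14 CPM, lay next above the minimum, and Atg9b, at 0.765 CPM, next below it.

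Messenger RNA was sequenced from the gastrocnemius, a calf muscle, of young male mice. Sham animals had sham surgery and received vehicle, and the others had a complete spinal cord injury (SCI) and received vehicle or boldine, a plant alkaloid known to block connexin hemichannels. Muscle was taken 7 or 28 days after surgery, with 4 sham, 6 SCI vehicle and 6 SCI boldine libraries at each time. The labels name no strain, mutation, boldine dose or schedule.

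Initiation is run by the ULK kinase complex and a lipid kinase complex, and membrane is supplied by ATG9 vesicles and ATG2 lipid transfer. A ubiquitin-like cascade led by ATG7 then attaches ATG8 proteins (LC3 and GABARAP) to the growing membrane, where they hold cargo receptors such as p62. The finished autophagosome fuses with a lysosome, which is acidified by the V-ATPase proton pump and loaded with cathepsins. In skeletal muscle the pathway is known to be engaged when fibres lose mass after denervation or disuse, and the transcription factors TFEB and FOXO are known to drive many of its genes.

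The DNA word CACGTG is the core of the site bound by TFEB and its relatives, and for that reason the promoters that hold it are shown. RefSeq promoter windows of GRCm38.p6 were matched to 47 of the 59 genes. The search covered the 250 bases before each start and both strands, and CACGTG reads the same on both. It was present for 10 of 47 members (21.3%), 9.76% of the 10630 tested genes with a window, and 6.86% of all 27025 genes. No CACGTG shared bases with a TGACNNNGC, which was also searched. Of the 4 genes whose windows follow, Lamp1, Atp6v1a and Ctsl were higher at 7 days after injury and Ctsa was lower. CACGTG is in capitals, and the strand is that of the gene.
Lamp1, chr8:13158911-13159160, plus strand: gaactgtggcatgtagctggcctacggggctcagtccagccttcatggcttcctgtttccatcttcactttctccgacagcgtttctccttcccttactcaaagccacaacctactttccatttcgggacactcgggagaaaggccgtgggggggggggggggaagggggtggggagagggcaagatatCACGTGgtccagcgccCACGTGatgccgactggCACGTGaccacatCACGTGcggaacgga
Atp6v1a, chr16:44139355-44139420, minus strand: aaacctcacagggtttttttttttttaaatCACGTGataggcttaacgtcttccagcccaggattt
Ctsl, chr13:64370721-64370770, minus strand: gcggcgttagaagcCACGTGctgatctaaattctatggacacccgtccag
Ctsa, chr2:164833731-164833772, plus strand: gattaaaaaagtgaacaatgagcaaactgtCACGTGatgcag
Lamp1 held 4 copies, between 15 and 61 bases before its start, and the other three held 1 copy each. The word stood before 6 of 24 matched members that were higher at 7 days after injury, 1 of 6 that were lower and 3 of 17 that were not called. A gene was counted if any of its windows held the word, and 7 members had 2 or more windows. The 1 lower member was Ctsa, whose other window, at chr2:164832622-164832921, held no CACGTG. The Ctsa, Ctsl and Atp6v1a stretches shown lie inside the genes as annotated by GENCODE, past their outermost starts. Among all tested genes that were higher at 7 days, 11.3% held it. TGACNNNGC, the core of the antioxidant response element bound by the NRF2 factor, stood before 6 members (12.8%) and 14.1% of tested genes. GTAAACA, the core word of FOXO sites, stood before 0 of 47 members and 2.78% of tested genes. A word match is a description of these letters and shows no binding. Windows for Map1lc3a, Atp6v1g1, Ctsb, Atg12, Atg16l1, Atp6v0a2, Atp6v1h, Atp6v1c1, Bnip3l, Becn1, Atp6v1b2 and Ctsh were not used here.

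Library totals lay between 9935424 and 14132960 counts, no library was identical to another, and all 59 members were among the 14955 genes that passed the filter on low counts. Fast-fibre markers summed to between 57800 and 236200 CPM in every library. The sham 28-day libraries and SCI vehicle 28-day libraries 1 to 4 held under 30 CPM of Hipk2, a nuclear kinase, while the other 24 libraries held more. No label names this split, and it separates all 6 SCI boldine 28-day libraries from all 4 sham 28-day libraries. SCI vehicle at 28 days is the 1 group with libraries on both sides, so a term for the library set at 28 days is estimated from its 4 libraries against its 2. A description code of SCI boldine 28-day library 6 runs with the vehicle codes, and its title and treatment label were followed.

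At 7 days after injury 27 of the 59 members were higher than in sham, 10 were lower and 22 were not called (edgeR quasi-likelihood test, adjusted p under 0.05 over all genes). Those are 45.76% and 16.95% of the members, beside 21.5% and 23.1% of all 14955 genes tested, or 44.6% in either direction. The median member log2 fold change was 0.16, beside -0.02 for all genes. CPM did not overlap between SCI vehicle and sham for 20 members that were higher (14.0% of all genes) and 4 that were lower (13.8%). Apart from the 1 CPM minimum, CPM and tests use TMM scaling, which assumes that most genes do not change. Scaled by library totals alone, the median of all genes moved to 0.37 and 42 members were called higher and 3 lower, beside 47.5% and 9.11% of all genes. The 27 higher calls remained under that scaling, and the lower calls were Ulk2, Tfeb and Ctsb. In these bulk libraries fewer cells of a type and less RNA per cell cannot be told apart.

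The ATG8 proteins, which tag the autophagosome membrane, had 4 of 5 genes higher and 0 lower at 7 days, beside 21.5% and 23.1% of all genes. Map1lc3a, which encodes LC3A, was 104, 118, 120 and 131 CPM in the 4 sham libraries, and its lowest, median and highest values in SCI vehicle were 322, 349 and 410. It was 3.06 times sham, a log2 fold change of 1.61 ± 0.09 (SE, adjusted p = 7.1e-15, edgeR), and every injured library lay above every sham library. Gabarap was 71.4, 82.3, 84.3 and 80.1 CPM in sham against 116, 122 and 130 CPM (lowest, median, highest) in SCI vehicle, with no overlap. It rose by 0.62 ± 0.07 (adjusted p = 1.5e-08). Map1lc3b encodes LC3B, a protein used to follow autophagosomes, but only RNA was measured here. Its RNA was 159, 150, 166 and 170 CPM in sham and 190, 222 and 242 CPM in SCI vehicle. It rose by 0.45 ± 0.07 (adjusted p = 2.7e-06), also without overlap. Gabarapl2 rose by 0.19 ± 0.07 (adjusted p = 0.023), and its groups overlapped. Gabarapl1 was not called (0.37 ± 0.16, adjusted p = 0.054), with SCI vehicle libraries between 36.8 and 81.5 CPM and sham between 35.1 and 42.6. Per kilobase of exon, Map1lc3a stood highest of the 5 in sham at 100 CPM and in SCI vehicle at 306 CPM, followed by Gabarap at 43.1 and 66.5 CPM. Exon length here merges all annotated exons of a gene, 1181 bases for Map1lc3a and 7517 for Map1lc3b. It can exceed the transcript present, so such orders depend on the annotation.

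Of the initiation and membrane-supply genes 3 of 11 were higher and 3 lower, near the 21.5% and 23.1% of all genes. Ulk2, which encodes a kinase that starts autophagy, was 178, 194.5, 195 and 188 CPM in sham and 78.1, 108 and 140 CPM in SCI vehicle. It fell by 0.81 on the log2 scale (SE 0.11, adjusted p = 6.8e-07), and all 6 injured libraries lay below all 4 sham libraries. Ulk1, the other ULK kinase, was not called (-0.18 ± 0.10). Atg101, a subunit of the same complex, was 29.9, 28.4, 27.4 and 23.3 CPM in sham and 14.2, 17.0 and 25.4 CPM in SCI vehicle, a change of -0.57 ± 0.12 (adjusted p = 0.00013) with 5 of 6 injured libraries below sham. Atg2b, a lipid transfer protein, rose by 0.31 ± 0.10, Wipi2, which binds the lipid made by the kinase complex, by 0.15 ± 0.06, and Atg14, a subunit of that lipid kinase, by 0.28 ± 0.12. Atg9a, a scramblase of the vesicles that seed the membrane, fell by 0.27 (SE 0.11). Atg14 lost its call without sham library 1, 2 or 3 or SCI vehicle library 1, 2 or 3 (adjusted p up to 0.20), and Wipi2 without sham library 1, 3 or 4 or SCI vehicle library 1 (up to 0.15). Atg9a lost its call without sham library 1, 3 or 4 or SCI vehicle library 1, 2 or 5 (up to 0.13), and was 0.10 with library totals.

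In the conjugation cascade 2 of 11 genes were higher and 1 was lower, beside 21.5% and 23.1% of all genes. Atg7, the activating enzyme at the head of the cascade, was 9.98, 10.96, 11.4 and 8.90 CPM in sham and 18.3, 20.0 and 21.8 CPM in SCI vehicle. It rose by 0.95 ± 0.12 (adjusted p = 1.2e-07) without overlap. Atg5, Atg12, Atg10, Atg3 and Atg16l1, its downstream partners, and Atg4b, an ATG8 protease, were not called, with log2 fold changes between -0.28 and 0.16. Atg4c, an ATG8 protease, fell by 0.66 (SE 0.17, adjusted p = 0.0019), and Atg16l2, a relative of Atg16l1, rose by 0.34 ± 0.14 (adjusted p = 0.039). The Atg16l2 call was lost without sham library 2 or 3 or without SCI vehicle library 1, 2 or 5, with adjusted p between 0.052 and 0.13.

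Cargo receptors link ubiquitinated or mitochondrial cargo to ATG8 proteins, and 3 of 5 were higher, beside 21.5% of all genes. Sqstm1, the p62 gene, was 592, 706, 668 and 525.6 CPM in sham and 806, 1132 and 1628 CPM in SCI vehicle. It rose by 0.90 ± 0.14 (adjusted p = 4.0e-06), with no overlap. Nbr1, a second ubiquitin-binding receptor, rose by 0.54 ± 0.08 (adjusted p = 1.9e-06), from 106.5 ± 5.64 to 154 ± 18.3 CPM (SD, n = 4 and 6). Bnip3, a receptor for mitochondria, rose by 0.46 ± 0.09, from 203 ± 12.9 to 280.4 ± 17.2 CPM (n = 4 and 6). Bnip3l (0.10 ± 0.07) and Optn (-0.17 ± 0.13) were not called.

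Genes of the V-ATPase, the proton pump that acidifies the lysosome, held 10 of 16 members higher and 2 lower, beside 21.5% and 23.1% of all genes. The V1 sector, which burns ATP, contributed 6 of 9 higher, and the membrane V0 sector 4 of 7. Atp6v1a, the catalytic A subunit, was 20.7, 21.8, 22.5 and 19.6 CPM in sham and 50.6, 67.7 and 107 CPM in SCI vehicle. It rose by 1.75 ± 0.16, or 3.37 times (adjusted p = 2.4e-10), and its groups did not overlap. Atp6v1g1, of the peripheral stalk, was 125, 123, 134 and 127 CPM in sham and 251, 271 and 312 CPM in SCI vehicle, a rise of 1.11 ± 0.08 (adjusted p = 6.3e-12). Atp6v1h, a regulator of the pump, rose by 0.94 ± 0.16 (adjusted p = 1.4e-05). Atp6v1b2, the B subunit that alternates with A around the ring, went from 51.0 ± 3.54 to 44.8 ± 3.23 CPM (SD, n = 4 and 6). It was called lower (-0.19 ± 0.08, adjusted p = 0.040, edgeR) but was 0.20 with library totals. The call ended when any 1 of 8 libraries was left out, namely sham 1, 2 and 3 and SCI vehicle 1, 2, 3, 5 and 6. It was also lost with RLE scaling, DESeq2, voom, no filter, the groups compared only or a replicate block (adjusted p between 0.0535 and 0.145). In the V0 sector Atp6v0e (0.72 ± 0.12), Atp6v0d1 (0.54 ± 0.09) and Atp6v0a1 (0.55 ± 0.10) rose, and Atp6v0a2, the alternative membrane a subunit, fell by 0.23 (SE 0.07, adjusted p = 0.0059). Atp6v0a2 lost its call without sham library 4 (adjusted p = 0.051) and was 0.17 with library totals.

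**Figure D1:**
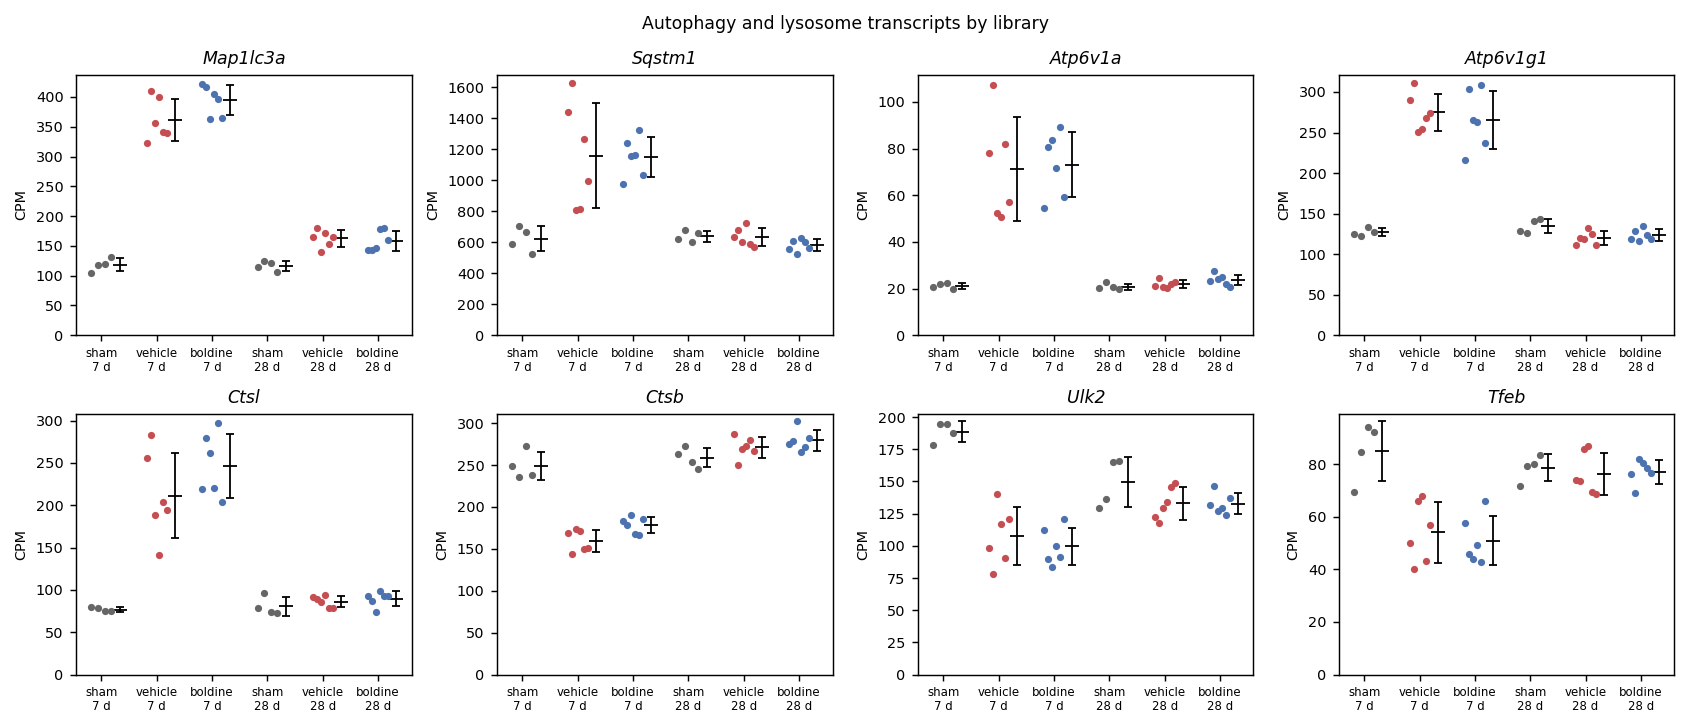
Levels of 8 members in CPM of TMM-scaled libraries (vertical axis, from 0) for the 6 groups of 4 or 6 libraries, each point a library and each bar the mean ± SD. Map1lc3a, Sqstm1, Atp6v1a, Atp6v1g1 and Ctsl lie above sham in every injured library at 7 days, whereas Ctsb, Ulk2 and Tfeb lie below it.

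At the lysosomal membrane both glycoproteins rose. Lamp1 was 405, 416, 469 and 449 CPM in sham and 527, 580.1 and 638 CPM in SCI vehicle, a rise of 0.42 ± 0.06 (adjusted p = 2.5e-06) with no overlap. Lamp2, which is also needed for fusion of autophagosomes, stood between 75.2 and 76.7 CPM in sham and between 94.7 and 102 CPM in SCI vehicle, a rise of 0.38 ± 0.06 (adjusted p = 7.2e-06). Tfeb, the transcription factor that drives lysosomal genes, was 69.3, 84.5, 94.1 and 92.3 CPM in sham and 40.2, 53.4 and 67.8 CPM in SCI vehicle. It fell by 0.66 (SE 0.12, adjusted p = 5.4e-05), and its groups did not overlap.

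Of the cathepsins, the proteases of the lysosome, 3 of 8 were higher and 3 lower, beside 21.5% and 23.1% of all genes. Ctsl was 79.4, 78.5, 74.6 and 74.8 CPM in sham and 142, 199 and 282 CPM in SCI vehicle, a rise of 1.46 ± 0.13, or 2.75 times (adjusted p = 2.3e-10). Ctsb was 249, 236, 273 and 238 CPM in sham and 144, 159.9 and 174 CPM in SCI vehicle. It fell by 0.64 (SE 0.06, adjusted p = 1.0e-09), and neither gene's groups overlapped. Ctsd rose by 0.61 ± 0.12 and Ctsz by 0.64 ± 0.14, whereas Ctsa fell by 0.41 (SE 0.06; -0.03 and not called with library totals) and Ctsh by 0.83 (SE 0.26, adjusted p = 0.010). Ctsh lost its call without sham library 3 (adjusted p = 0.051). Ctsk, an enzyme best known from bone resorption (-0.64 ± 0.33), and Ctss, best known from antigen-presenting cells (0.01 ± 0.30), lay under 5 CPM in all sham and SCI vehicle libraries and were not called. Per kilobase of merged exons, Ctsl stood below Ctsd, Ctsb, Ctsa and Ctsz in sham (11.8 CPM) and below Ctsd alone in SCI vehicle (32.6 CPM). Ctsd was 63.6 CPM in sham and 97.1 CPM in SCI vehicle. This order depends on annotated lengths, 6489 bases for Ctsl and 1441 for Ctsz.

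**Figure D2:**
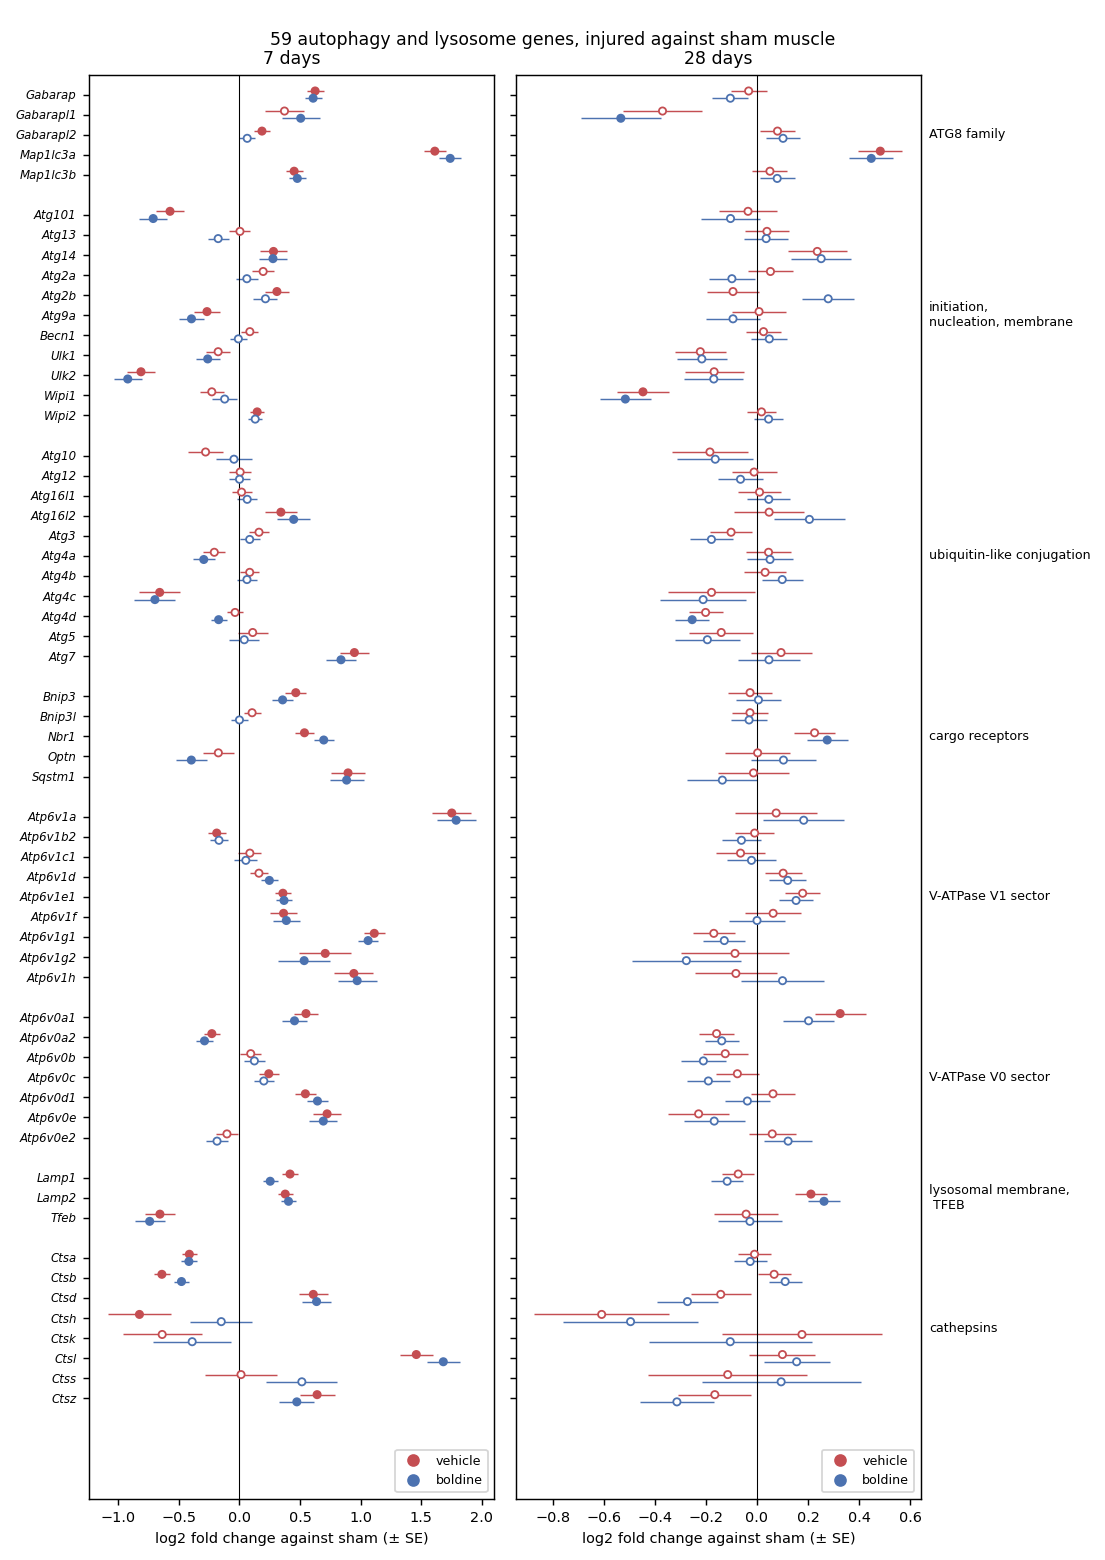
Log2 fold changes against sham (horizontal axis, ± SE) of the 59 genes grouped by role, at 7 days (left) and 28 days (right, on its own scale), for SCI vehicle (red) and SCI boldine (blue). Filled points passed adjusted p under 0.05, which at 7 days were 27 higher and 10 lower for SCI vehicle.

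Since ratios of counts within a library do not depend on scaling, 5 pairs were set side by side after their values were seen, with no test. The Atp6v1a to Atp6v1b2 ratio was 0.416 ± 0.028 in sham at 7 days and 1.62 ± 0.61 in SCI vehicle (SD, n = 4 and 6), and 0.440 and 0.465 at 28 days. The ratio of Ctsl to Ctsb went from 0.310 ± 0.026 to 1.34 ± 0.39, and the ratio of Map1lc3a to Map1lc3b from 0.734 ± 0.060 to 1.65 ± 0.22. At 28 days the ratio of Map1lc3a to Map1lc3b was 0.710 in sham and 0.962 in SCI vehicle. The ratio of Atp6v1g1 to Atp6v1b2 went from 2.50 ± 0.20 to 6.19 ± 0.97 at 7 days. The ratio of Sqstm1 to Optn was 6.30 ± 1.04 in sham and 14.2 ± 6.45 in SCI vehicle, and there the groups overlapped, with 7.07 as the highest sham value and 6.91 as the lowest in SCI vehicle.

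**Figure D3:**
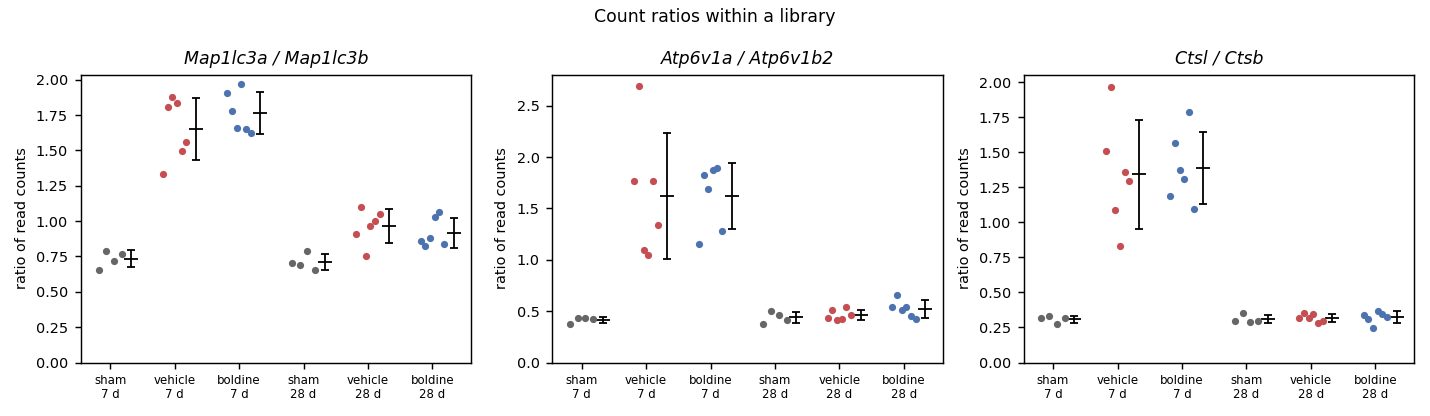
Ratios of read counts of 3 gene pairs within each library (vertical axis, from 0) by group, each point a library and each bar the mean ± SD of 4 or 6 libraries. In all 3 panels the 7-day injured libraries lie above the sham libraries, and at 28 days the Atp6v1a and Ctsl ratios lie near sham.

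Injured libraries at 7 days were not alike. SCI vehicle libraries 1, 2 and 5 held the 3 highest values for 14 of the 27 higher members, Sqstm1, Atp6v1a and Ctsd among them, and the 3 lowest for 3 of the 10 lower members, Ulk2, Tfeb and Atg9a. Over all genes called higher the same 3 libraries led for 43.6%, and over all genes called lower for 31.4%. Their fast-fibre markers summed to 69230, 57800 and 67190 CPM, beside 136500, 122500 and 106700 CPM in libraries 3, 4 and 6. The part of this spread in the members' results was not tested.

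Macrophage markers were examined beside these lysosomal genes because macrophages are rich in lysosomes. Of 12 markers 10 were tested, and 1 was higher at 7 days, Cd68, a lysosomal glycoprotein (1.74, adjusted p = 0.0024), with 0 lower. None of the 12 was at 0 in all libraries of a group. Their summed level was 66.4 to 123 CPM in sham and 52.9 to 89.3 CPM in SCI vehicle. Fast-fibre markers fell at the same time, with 5 of 6 lower, from sums between 154700 and 217700 CPM to sums between 57800 and 136500 CPM. Endothelial markers were lower for 6 of 7, fibro-adipogenic progenitor markers for 5 of 8, adipocyte markers for 4 of 5 and Schwann cell markers for 3 of 5. Satellite cell markers, of muscle stem cells, summed to 24.8 to 37.7 CPM in sham and 51.3 to 62.0 CPM in SCI vehicle, without overlap. Of the 4 tested, Cdh15 (1.22) and Myf5 (1.26) rose, Chodl fell, and Pax7 was not called (-0.46, adjusted p = 0.12). The part of these changes in the members' results was not tested.

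Genes of the pathway outside the rule were followed in a list of 66, of which 65 were tested. At 7 days 22 were higher and 8 lower, beside 21.5% and 23.1% of all genes, with a median of 0.10. The 4 with the smallest p among higher genes were Scarb2, a lysosomal membrane receptor (0.54 ± 0.06), Gaa, the lysosomal alpha-glucosidase (0.79 ± 0.10), Atp6ap2, a V-ATPase accessory protein (1.10 ± 0.16), and Cstb, an inhibitor of cathepsins (1.89 ± 0.27). Among lower genes they were Trp53inp2, an autophagy cofactor (-0.75 ± 0.09), Rab7, a GTPase of late endosomes (-0.55 ± 0.09), Ctsc, a dipeptidyl peptidase (-0.61 ± 0.11), and Smpd1, acid sphingomyelinase (-0.47 ± 0.09). Atp6ap2 went from 12.5 ± 1.53 to 26.8 ± 7.43 CPM and Cstb from 3.24 ± 0.64 to 11.96 ± 4.98 CPM (SD, n = 4 and 6).

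By 28 days most of this pattern was no longer called. In SCI vehicle against sham 3 of 59 members were higher and 1 was lower, beside 4.05% and 4.88% of all genes (8.93% in either direction). The median member difference was -0.01. Map1lc3a was 114, 124, 121 and 106 CPM in sham and 139, 165 and 181 CPM in SCI vehicle, with every injured library above sham. It rose by 0.48 ± 0.09 (adjusted p = 0.00034) and by 0.50 with a term for the library sets (adjusted p = 0.00096). Wipi1, which binds the same lipid as Wipi2, was 62.5, 74.7, 67.6 and 56.2 CPM in sham and 47.0, 47.9 and 49.1 CPM in SCI vehicle. It fell by 0.45 (SE 0.10, adjusted p = 0.0037), with every injured library below sham. Atp6v0a1 (0.33 ± 0.10, adjusted p = 0.033) and Lamp2 (0.21 ± 0.06, adjusted p = 0.026) were also higher. Atp6v0a1 lost its call without sham library 3 or 4 or SCI vehicle library 2 or 4 (adjusted p between 0.062 and 0.16). Lamp2 lost its call without sham library 1, 2 or 4 or SCI vehicle library 2 or 6 (adjusted p between 0.050 and 0.13) and with the library set term (adjusted p = 0.097). Atg4d, an ATG8 protease (-0.20, adjusted p = 0.053), Nbr1 (0.23, adjusted p = 0.074), Atp6v1e1, a V1 stalk subunit (0.18, adjusted p = 0.095), and Ctsh (-0.61, adjusted p = 0.16) were not called. The same holds for Atp6v0a2 (-0.16, adjusted p = 0.15), and for these 5 genes CPM did not overlap between the groups. In all, 4 members lay wholly above sham and 4 wholly below it, beside 5.36% and 5.92% of all genes.

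The day difference was tested directly as an interaction. The SCI log2 fold change was lower at 28 days than at 7 days for 19 members and higher for 5. Over all genes it was lower for 12.3% and higher for 11.6%. With library totals the median of all genes moved to -0.46 and the counts to 45 and 0, beside 42.1% and 3.56% of all genes. Of the 27 members higher at 7 days, 18 were called lower in this difference. The median log2 fold change of all 27 went from 0.54 to 0.05. Of the 10 members lower at 7 days, 5 were called higher in this difference, namely Atg101, Ulk2, Tfeb, Ctsa and Ctsb. The median of all 10 went from -0.61 to -0.04. The 27 and the 10 were picked by calls from the same 7-day libraries, so some movement towards 0 follows from that choice. No share over all genes called at 7 days was set beside these counts. The 5 members with the smallest p were Atp6v1g1 (-1.28 ± 0.12, adjusted p = 8.0e-09), Map1lc3a (-1.13 ± 0.12), Ctsb (0.71 ± 0.09), Atp6v1a (-1.68 ± 0.22) and Ctsl (-1.36 ± 0.18). Ctsl, for example, was 72.7 to 96.7 CPM in sham and 78.6 to 94.3 CPM in SCI vehicle at 28 days, and Ctsb 246 to 272 CPM and 251 to 287 CPM. Of the 65 other pathway genes tested, 3 were higher at 28 days and 2 lower, near the 4.05% and 4.88% of all genes. The higher ones were Foxo1, a driver of autophagy genes (1.25 ± 0.31), Foxo3, its relative (0.47 ± 0.13), and Snap29, which acts in fusion (0.33 ± 0.10). The lower ones were Fundc1, a mitophagy receptor, and Trp53inp2.

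Boldine against vehicle in injured muscle gave 0 called members at either day in the edgeR fit, beside 0.00669% of all genes higher and 0.0267% lower at 7 days, and 0.0134% and 0.00669% at 28 days (0.0201% in either direction). At an unadjusted p under 0.05 there were 7 of 59 members at 7 days and 1 of 59 at 28 days, beside 9.59% and 9.56% of all genes. At 7 days the 5 smallest p-values belonged to Lamp1 (-0.16, 95% interval -0.28 to -0.05, adjusted p = 0.28), Ctsh (0.68, 0.20 to 1.15, adjusted p = 0.29), Ctsb (0.16, 0.04 to 0.28, adjusted p = 0.30), Atg13, of the ULK complex (-0.18, -0.34 to -0.02), and Atg4d (-0.14, -0.26 to -0.01). Map1lc3a, Sqstm1, Atp6v1a and Ctsl differed by 0.13, -0.01, 0.04 and 0.22, with intervals from -0.03 to 0.28, -0.27 to 0.24, -0.23 to 0.30 and -0.01 to 0.45.

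Atg2b was the 1 member with an unadjusted p under 0.05 at 28 days, at 0.37 with an interval of 0.19 to 0.56 (adjusted p = 0.12, edgeR). Its values were 27.1 CPM to 32.3 CPM in SCI boldine, and 20.5, 21.9, 18.6 and 20.5 CPM in SCI vehicle libraries 1 to 4 but 29.2 and 28.3 CPM in libraries 5 and 6. Libraries 5 and 6 lie with the boldine libraries in the Hipk2 split, and with a term for that split the Atg2b difference was 0.06 (adjusted p = 1). Atg2b was called without SCI vehicle library 5 (adjusted p = 0.0069) or 6 (adjusted p = 0.024), with DESeq2 (adjusted p = 0.023) and with limma voom (adjusted p = 0.0035). The interaction of boldine with day called 0 members, beside 0.00669% of all genes higher and 0.0% lower. For Atg2b it was 0.47 (adjusted p = 0.19), called without SCI vehicle 28-day library 5 (adjusted p = 0.043), and 0.16 with the library set term (adjusted p = 0.89). Wipi1 was the 1 member whose CPM did not overlap between boldine and vehicle, at 43.9 to 46.8 against 47.0 to 49.1 CPM (-0.07), beside 0.328% of all genes lower. Leaving out SCI boldine library 6, whose code runs with vehicle, also left 0 calls. The boldine effects on Atg2a (-0.15), Atp6v0c (-0.11) and Atp6v0a1 (-0.12) became 0.08, 0.01 and 0.02 with that term.

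**Figure D4:**
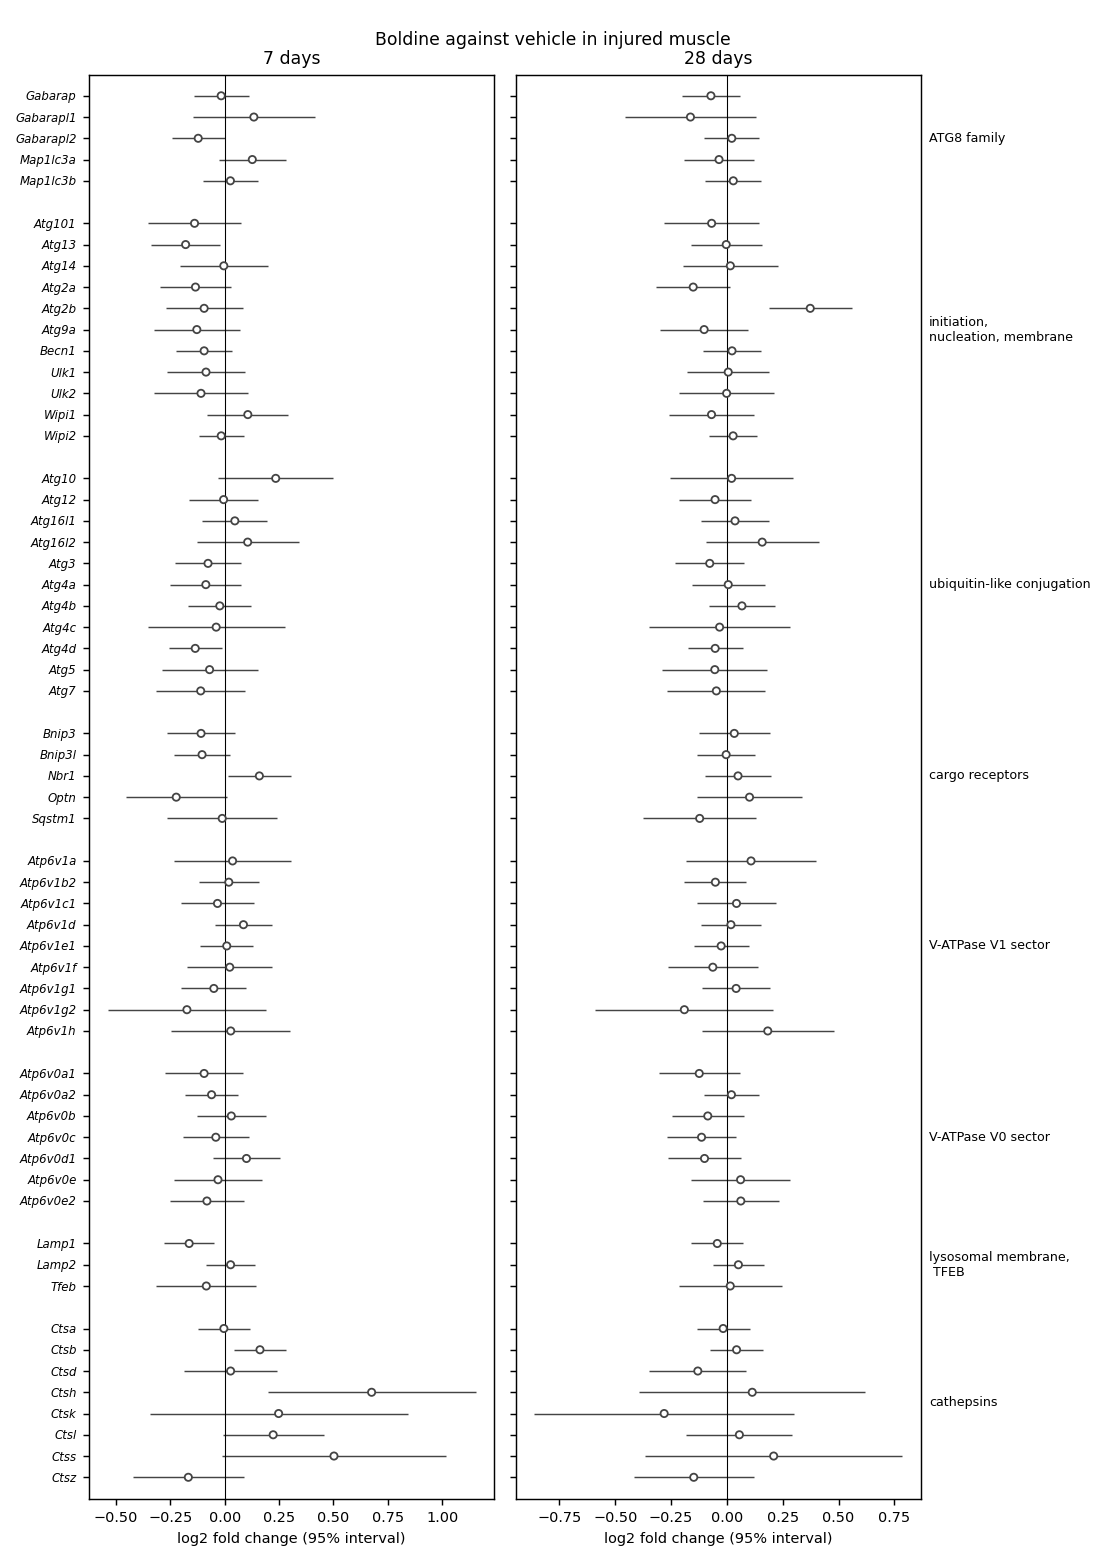
Log2 fold changes of SCI boldine against SCI vehicle for the 59 members (horizontal axis, with 95% intervals), at 7 days (left) and 28 days (right). All points are open since 0 members passed adjusted p under 0.05, and Atg2b at 28 days (0.37) lies farthest from 0 in relation to its interval.

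**Figure D5:**
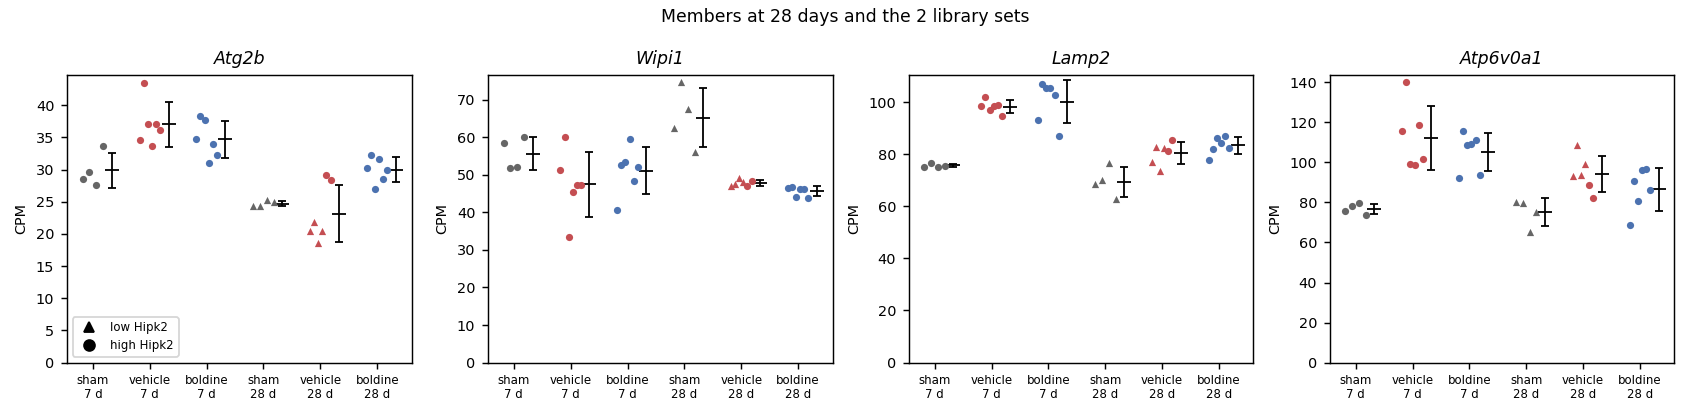
Levels of Atg2b, Wipi1, Lamp2 and Atp6v0a1 in CPM (vertical axis, from 0) by group, each point a library, each bar the mean ± SD of 4 or 6 libraries, with triangles for libraries under 30 CPM of Hipk2. In SCI vehicle at 28 days the 4 triangles of Atg2b lie between 18.6 and 21.9 CPM and the 2 circles at 28.3 and 29.2 CPM.

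SCI boldine libraries against sham share the sham libraries with SCI vehicle, so their values are given side by side and not as a second finding. At 7 days 25 members were higher and 12 lower, beside 21.7% and 22.5% of all genes (44.2% in either direction). The higher calls shared 23 members, 85.19% of those for vehicle and 92% of those for boldine, and the lower calls 8, 80% and 66.67%. Called higher for vehicle alone were Atg2b, Atp6v0c, Gabarapl2 and Wipi2, and for boldine alone Atp6v1d and Gabarapl1. Called lower for vehicle alone were Atp6v1b2 and Ctsh, and for boldine alone Atg4a, Atg4d, Optn and Ulk1. These differences are of calls, and the direct test of boldine against vehicle called none of these genes. Map1lc3a was 362, 401 and 422 CPM, Atp6v1a 54.3, 76.1 and 89.4 CPM, Ctsl 204, 241 and 297 CPM and Sqstm1 977, 1163 and 1325 CPM (lowest, median, highest) in SCI boldine. At 28 days 3 were higher and 3 lower, beside 8.79% and 9.35% of all genes, and with the library set term there were 0 and 0, beside 0.602% and 0.863%. Without the library set term Map1lc3a (0.45 ± 0.09), Lamp2 (0.26 ± 0.06) and Nbr1 (0.28 ± 0.08) were higher, and Wipi1 (-0.52 ± 0.10), Gabarapl1 (-0.53 ± 0.16) and Atg4d (-0.25 ± 0.07) lower. With it Map1lc3a was 0.50 (adjusted p = 0.078), Wipi1 -0.51 (0.14) and Atg4d -0.28 (0.24), about as large as without it. Lamp2 was 0.18 (0.44), Nbr1 0.22 (0.48) and Gabarapl1 -0.25 (0.74). CPM did not overlap for 4 members above sham, beside 8.32% of all genes, and 5 below it, beside 8.43%. Gabarapl1 lost its call without sham library 2 (adjusted p = 0.16) and Nbr1 without sham library 3 (adjusted p = 0.055). Macrophage markers summed to 64.0 to 278 CPM (median 86.5) in SCI boldine at 28 days and 70.6 to 90.4 CPM (median 73.3) in sham, with 1 of 10 higher. Endothelial markers were lower for 6 of 7, with sums of 166.5 to 247.5 CPM against 318.7 to 387.8 CPM in sham, fibro-adipogenic progenitor markers were lower for 3 of 8 and fast-fibre markers higher for 3 of 6. In SCI vehicle at 28 days endothelial markers were lower for 2 of 7 and fast-fibre markers higher for 2 of 6. The part of these changes in the 28-day results was not tested.

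The sources used here name no strand setting for the counting, so reads of genes whose exons overlap on opposite strands cannot be told apart. Among the members named here Sqstm1, Ctsl, Ctsb, Ctsa, Ctsz, Lamp1, Map1lc3b, Bnip3, Gabarapl1, Atp6v1h, Atp6v1e1, Atp6v0a2, Atg9a, Atg14, Atg2b, Atg4d, Atg16l2, Becn1 and Optn have such overlaps. Exons of Ctsd, Ctsl and Atg9a overlap those of another gene on the same strand, which a strand setting would not part. Map1lc3a (mm10 chr2:155276297-155278073), Atp6v1a (mm10 chr16:44085402-44139705), Atp6v1g1 (mm10 chr4:63544772-63550750), Ulk2 (mm10 chr11:61775649-61855073) and Tfeb (mm10 chr17:47737030-47792419) have none.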

How the data were processed

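Raw counts of reads per gene were deposited by the authors as 1 table of 32 libraries. Per the labels' protocols, RNA was extracted from about 20 mg of muscle with miRNeasy and 1 µg entered a NEBNext Ultra preparation. Per the submitters' processing notes, reads passed through FastQC, Trim Galore, cutadapt and STAR with the mm10 build. Versions, the counting tool, its strand setting and its annotation were not named there.

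Gene IDs were named with GENCODE M21 for 55227 of 55487 genes, and the 260 others held 0.0189% of counts. Each column was matched to its sample by the sample's own label. Genes were filtered with filterByExpr (minimum count 10, minimum total 15), scaled by TMM and fitted with the quasi-likelihood test of edgeR 4.0.16 in R 4.3.3 over all 6 groups, with Benjamini-Hochberg adjustment over 14955 genes and a threshold of 0.05. The fit was also run on simulated counts in which a small part of the genes changed in a single group. At 7 days 44.6% of all genes were called, so that run does not test the scaling there. CPM values are TMM-scaled, except for the 1 CPM minimum and the means set beside it, and errors are SD over libraries or SE of the fit. Nothing in the labels says whether libraries of a group are separate animals, so the tests speak only for the spread among these libraries, which may be technical. Alternatives were RLE and library-total scaling, no filter, DESeq2 1.42.0, limma 3.58.1 voom with quality weights, a fit of the groups compared only, a replicate block, a library set term and leaving out each library.

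The members and lists were chosen with earlier results of these data known. Named were, per role, up to 3 called members with the smallest p in each direction against sham, the 5 smallest p for boldine against vehicle and for the day difference, all ATG8 genes and cathepsins, the genes next to the 1 CPM minimum, and 4 other pathway genes per direction. Genes named beyond the rule, the count ratios, and the libraries 1, 2 and 5 of the 7-day vehicle group, were chosen after their values were seen.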

Additional observations from a re-analysis of the deposited data

Results flagged for a closer look

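In 6 of 270 groups of 4 or 6 libraries screened, 1 library lay apart from the others of its group in the level of a member. Chance alone gives this in about 1 in 20 groups. Atg101 was 12.9 CPM in SCI boldine 7-day library 5, and Atg4c was 9.95 CPM in sham 28-day library 3. Atg4d was 60.2 CPM in SCI boldine 7-day library 6. In SCI vehicle at 28 days Atp6v1b2 was 40.7 CPM and Gabarap 72.1 CPM in library 5, and Ctsz was 17.4 CPM in library 6.

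The SCI effect differed between 28 and 7 days for 24 members, beside 23.9% of all genes (edgeR interaction, adjusted p under 0.05). Values are the log2 difference of 28 minus 7 days. Among ATG8 genes it was -1.13 for Map1lc3a, -0.66 for Gabarap, -0.40 for Map1lc3b and -0.74 for Gabarapl1. In the earlier steps it was 0.54 for Atg101, 0.65 for Ulk2, -0.40 for Atg2b and -0.85 for Atg7. Of the cargo receptors it was -0.91 for Sqstm1, -0.49 for Bnip3 and -0.31 for Nbr1. Of the V-ATPase genes it was -1.68 for Atp6v1a, -1.28 for Atp6v1g1, -1.03 for Atp6v1h, -0.95 for Atp6v0e, -0.48 for Atp6v0d1 and -0.32 for Atp6v0c. At the lysosome it was -0.49 for Lamp1, 0.61 for Tfeb, -1.36 for Ctsl, -0.81 for Ctsz, -0.75 for Ctsd, 0.40 for Ctsa and 0.71 for Ctsb.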

How the results depend on the processing

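Library totals moved the counts of members called higher and lower against sham. At 7 days they were 42 and 3 for SCI vehicle, beside 47.5% and 9.11% of all genes. For SCI boldine at 7 days they were 46 and 3, beside 52.1% and 7.94%. At 28 days they were 1 and 3 for SCI vehicle, beside 1.99% and 8.4% of all genes. For SCI boldine at 28 days they were 1 and 6, beside 5.63% and 13.4%. The day difference gave 0 and 45, beside 3.56% and 42.1% of all genes. With library totals the 7-day log2 values in SCI vehicle turned to 0.10 for Atg9a, 0.20 for Atp6v1b2 and 0.17 for Atp6v0a2. In SCI boldine they turned to 0.037 for Atg9a, 0.16 for Atg4a, 0.27 for Atg4d, 0.040 for Optn, 0.15 for Atp6v0a2 and 0.027 for Ctsa. For SCI vehicle at 28 days the higher calls were 5 with voom and 1 with no filter, and the lower calls 2 with DESeq2, voom, the groups compared only, the replicate block or the library set term. For SCI boldine against sham at 28 days they were 5 higher with voom, 5 higher and 5 lower with the groups compared only, and 0 and 0 with the library set term, where Map1lc3a (0.50), Wipi1 (-0.51) and Atg4d (-0.28) were about as large as without it. Boldine against vehicle at 28 days gave 1 higher call, Atg2b, with DESeq2 or voom, and with the library set term its values turned to 0.075 for Atg2a, 0.011 for Atp6v0c and 0.018 for Atp6v0a1, and Atg2b was 0.061. The causes of these changes were not tested.

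Leaving out single libraries gave 23 to 29 higher and 8 to 10 lower members for SCI vehicle at 7 days, and 1 to 3 and 1 to 2 at 28 days. SCI boldine against sham gave 23 to 26 and 10 to 12 at 7 days, and 2 to 4 and 2 to 3 at 28 days. Boldine against vehicle gave 0 and 0 at 7 days, 0 to 1 and 0 at 28 days, and 0 to 1 and 0 for the difference between days. The day difference of the SCI effect gave 5 to 6 higher and 16 to 21 lower.

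With the replicate block SCI vehicle gave 26 and 9 at 7 days and 3 and 2 at 28 days. Same-numbered libraries did not visibly deviate together (72 pairs, median r 0.00754, range -0.168 to 0.235), and 6 of 32 libraries correlated best with their own number. These values show no pairing by number, but cannot exclude a shared origin with a small effect on expression. Between 9935424 and 14132960 counts per library limit the precision of genes at a few CPM, such as Ctsk, Ctss and Ctsh.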
